A study of Mus musculus with 6 samples.

Results

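The proteasome genes described here are those of the deposited count table whose KEGG annotation holds the mouse proteasome pathway, apart from the immunoproteasome subunits Psmb8, Psmb9 and Psmb10. They are 42 of the 78298 genes of the table and comprise 16 genes of the 20S core, 18 of the 19S cap, 3 of the PA28 activator and 5 others: Psme4, Psmf1, Pomp, Psmd9 and Ifng. Ifng, the gene of interferon gamma, is no proteasome subunit and is in the set through the pathway annotation alone. The RNA came from RENCA cells, an established mouse renal adenocarcinoma line. In 3 samples (oe-AQP1) the cells had been transduced with a lentivirus carrying the coding sequence of mouse Aqp1, a water channel gene, behind the ubiquitin C promoter, and in 3 samples (oe-NC) with the empty vector. Cells of both groups carried a puromycin resistance cassette and were kept in puromycin at 2 μg/mL for 14 days, starting 48 h after transduction, so that no sample is free of virus or selection. The labels place all 6 samples in 1 batch and do not say whether the 3 samples of a group came from separate transductions or cultures, and p-values then measure only the spread between these samples.

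The proteasome degrades proteins that carry ubiquitin chains. Its 20S core is a barrel with outer rings of alpha subunits and inner rings of beta subunits, of which Psmb5, Psmb6 and Psmb7 hold the constitutive active sites. The 19S cap binds, deubiquitinates, unfolds and feeds in the substrate through a base, built around a ring of ATPases, and a lid. PA28 is a ring without ATPase activity that opens the barrel: Psme1 and Psme2 encode its cytoplasmic alpha and beta subunits, which interferon gamma is known to induce together with the immunoproteasome subunits, and Psme3 encodes the nuclear PA28 gamma.

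From 18385714 to 21920899 expected counts were assigned to genes per sample, and 15522 genes passed the filter on low counts. Aqp1, the overexpressed gene, had 7713, 8545 and 7838 counts in oe-AQP1 and 41, 25 and 45 in oe-NC (log2 fold change 7.70, SE 0.16). Transcripts of the vector and of the endogenous gene are counted together there. The sample oe-NC 1 stood apart from its group: a chi-square statistic between replicates, which counting noise alone would put near 1 per gene, was 9.81 and 11.4 per gene between oe-NC 1 and the other oe-NC samples, and 1.71 to 2.04 for the remaining pairs of replicates. Results that rest on oe-NC 1 are therefore also given without it. Of the kidney epithelium markers, Pax8, Krt8, Krt18 and Cdh16 were well counted in every sample, whereas Epcam had 0 counts in all 6. Of the 8 epithelial markers checked, 7 were tested. Of these, 4 were lower in oe-AQP1 (57.1%) and 0 higher, beside 16.6% and 16.0% of all genes. The 8 markers summed to 829 to 858 CPM in oe-AQP1 and 1003 to 1113 CPM in oe-NC. CPM are counts scaled to the library's TMM-adjusted total. Adgre1 (macrophages) and Kdr (endothelium) had 0 counts in every sample, Ptprc (leukocytes) at most 3, and Pdgfra and Dcn (fibroblasts) at most 1. Other markers of these cell types were counted: Cd68 had 576 to 777 counts per sample, Csf1r 173 to 202 in oe-NC and 56 to 76 in oe-AQP1 (log2 fold change -1.51, called lower), Pecam1 13 to 35, Pdgfrb 617 to 967 (0.34, called higher) and Col1a1 246 to 509 (-0.73, called lower). The 4 fibroblast markers summed to 56.0 to 58.0 CPM in oe-AQP1 against 51.0 to 65.0 CPM in oe-NC, and the 3 endothelial markers to at most 1.59 CPM. The part of other cell types in the proteasome values was not tested. The 6 leukocyte and macrophage markers summed to 36.1 to 38.9 CPM in oe-AQP1 and 38.5 to 41.7 CPM in oe-NC.

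Of the 42 proteasome genes, 39 passed the filter. By limma-voom with Benjamini-Hochberg adjustment over all genes tested, 8 of the 39 were higher in oe-AQP1 than in oe-NC, 4 were lower and 27 were not called. Among all 15522 genes, 16.0% were called higher and 16.6% lower, against 20.5% and 10.3% of the proteasome genes tested. Each of the 39 genes had a mean of at least 500 counts, and among all genes that well counted 17.5% were higher and 24.8% lower. The median log2 fold change was 0.02 over the 39 genes and 0.00 over all genes. All but 2 of the changes were small. Psme1 and Psme2 had log2 fold changes above 1, a size that 4.39% of all genes reached in a higher call (0.844% in a lower call, which no proteasome gene reached), and the other 37 genes lay between -0.26 and 0.28. At an unadjusted p under 0.05 there were 19 genes, against 12 after adjustment. The share of all genes at that unadjusted threshold is not given here, so these 19 have no background beside them. The samples of the groups did not overlap for 14 genes with oe-AQP1 on top and for 7 with oe-AQP1 below, whereas 23.5% and 23.8% of all genes had such a separation.

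**Figure D1:**
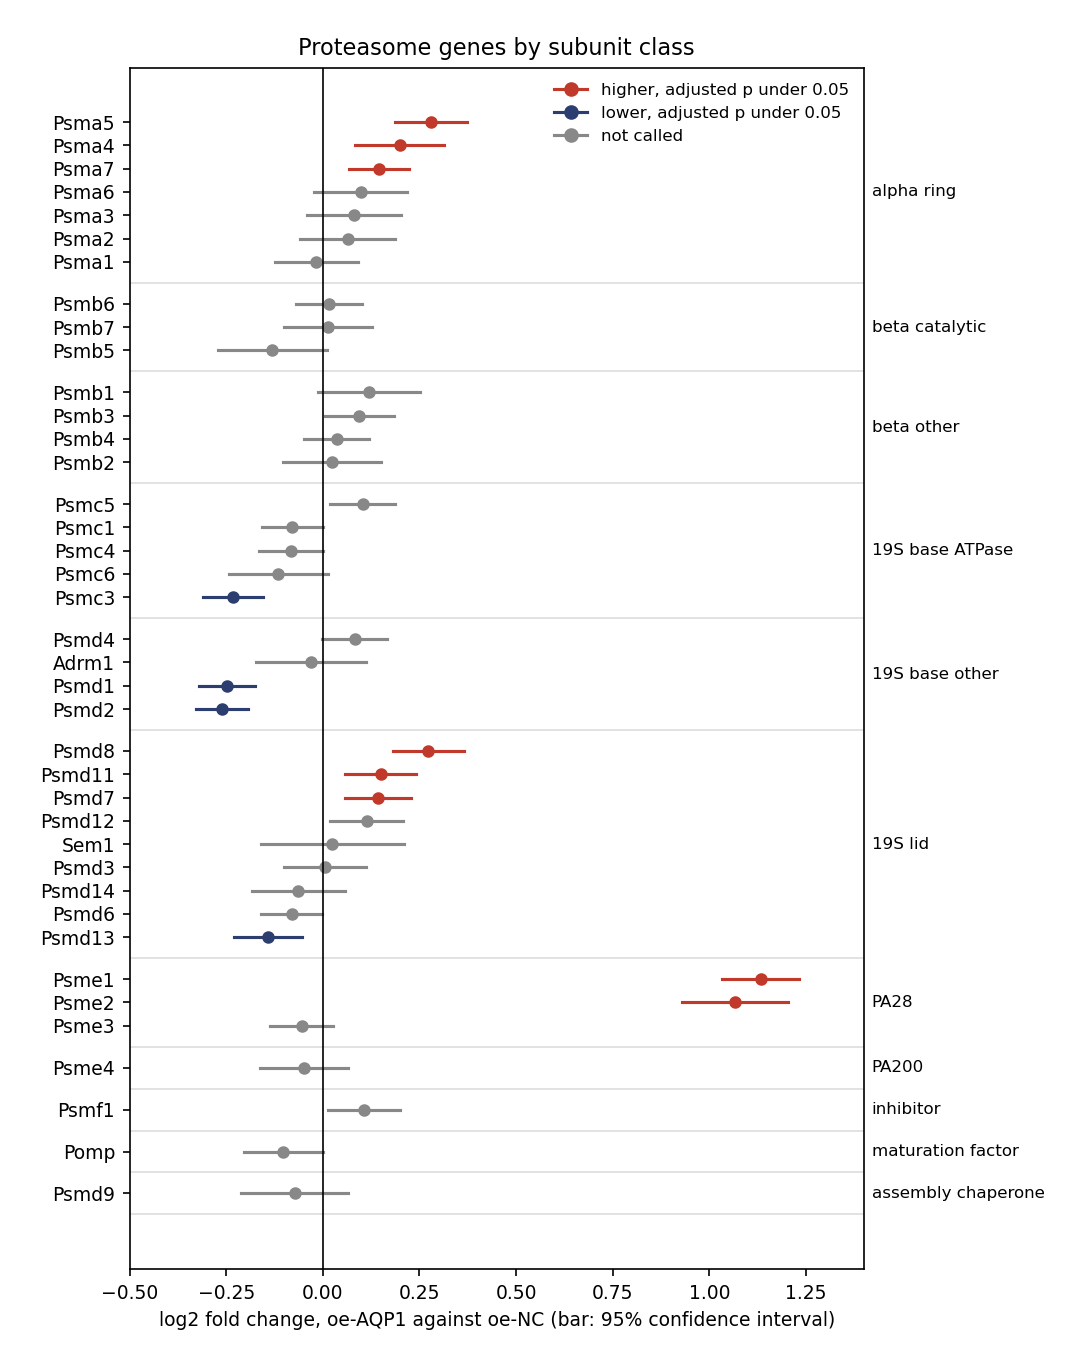
The 39 proteasome genes tested, each with its log2 fold change between oe-AQP1 and oe-NC (points; positive where oe-AQP1 was higher) and the 95% confidence interval (bars), grouped by subunit class; colour marks calls at an adjusted p under 0.05. Psme1 and Psme2 lie above 1, and all other genes lie between -0.26 and 0.28.

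Without oe-NC 1, 12 proteasome genes were called higher and 13 lower out of 40 tested, when 19.4% and 20.7% of all genes were called in these directions. The 12 genes called with all samples kept their call and direction. The added higher calls were Psmc5, Psmd4, Psmd12 and Psmf1, and the added lower calls were Psmb5, Psmc1, Psmc4, Psmc6, Psmd6, Psmd14, Psme3, Psme4 and Pomp. Of these 13 genes, Psmb5, Psme3, Psme4, Psmf1 and Pomp are named by rule, and the other 8 were named after their values had been seen.

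The genes of the cytoplasmic PA28 ring were the members that changed most. Psme1 (ENSMUSG00000022216, chr14:55815190-55822034, plus strand, GRCm39) measured 137, 139 and 142 CPM in oe-AQP1 samples 1 to 3 and 60.9, 63.5 and 66.2 CPM in oe-NC samples 1 to 3. Every oe-AQP1 sample was more than 2 times as high as every oe-NC sample. In RNA from bulk cells, more cells that express a gene and more RNA per cell cannot be told apart. The log2 fold change was 1.13 (SE 0.04; limma-voom adjusted p = 2.48e-08), from means of 139 ± 2.32 and 63.5 ± 2.68 CPM (SD, n = 3 each). Psme2 (ENSMUSG00000079197, chr14:55824895-55829173, minus strand), which lies next to Psme1 and points toward it, measured 186, 182 and 192 CPM in oe-AQP1 and 80.3, 90.5 and 97.0 CPM in oe-NC. Its log2 fold change was 1.07 (SE 0.06; adjusted p = 5.63e-07), and the groups were again far apart. Psme3 (ENSMUSG00000078652, chr11:101206777-101215813, plus strand) measured 258, 249 and 254 CPM in oe-AQP1 against 256, 264 and 271 in oe-NC. These samples overlapped, and the log2 fold change of -0.05 (95% confidence interval -0.14 to 0.03; adjusted p = 0.291) was not called. Without oe-NC 1 it was -0.08 and was called lower (adjusted p = 0.015). An exact two-sided permutation test of the 6 samples gave p = 0.1 for Psme1 and for Psme2, the smallest it can give for 3 against 3, and p = 0.2 for Psme3.

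**Figure D2:**
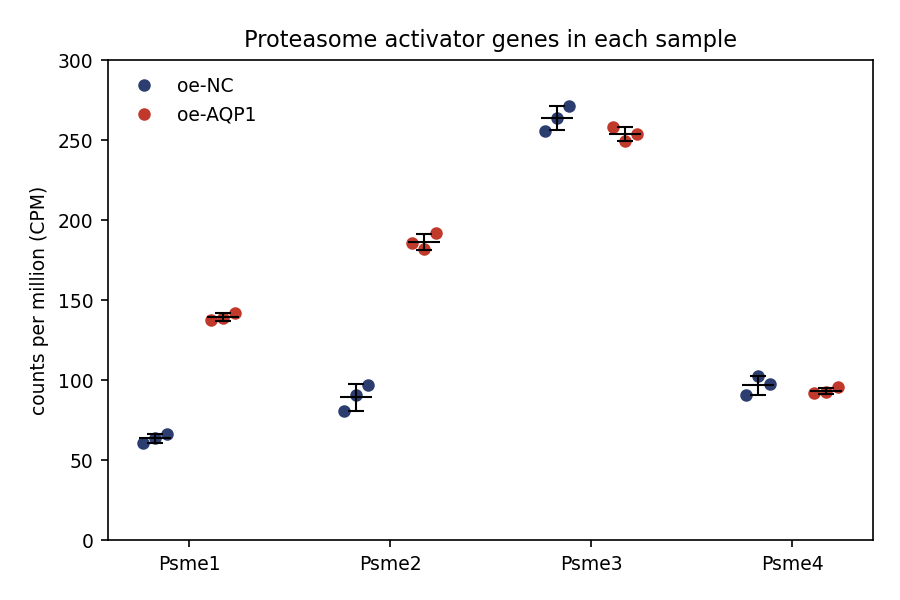
CPM of the activator genes Psme1, Psme2, Psme3 (PA28) and Psme4 (PA200) in each of the 3 oe-NC and 3 oe-AQP1 samples (points), with the group mean and SD (lines). The groups are far apart for Psme1 (60.9 to 66.2 against 137 to 142 CPM) and Psme2 (80.3 to 97.0 against 182 to 192 CPM), and overlap for Psme3 and Psme4.

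The promoters of the 3 PA28 genes are shown because Psme1 and Psme2 moved together and Psme3 did not. The windows are RefSeq's, from 250 bases before to 50 bases after a transcript start, and were located in GRCm39 by exact match. They were searched on both strands for the core of the interferon-stimulated response element (ISRE; GAAA, any 2 bases, GAAA), for the gamma-activated site (GAS, TTCNNNGAA), for the antioxidant response element (ARE, TGACNNNGC), to which Nrf factors bind, and for the CCAAT box. Capitals mark the ISRE core.
Psme1, chr14:55815701-55816000, plus strand: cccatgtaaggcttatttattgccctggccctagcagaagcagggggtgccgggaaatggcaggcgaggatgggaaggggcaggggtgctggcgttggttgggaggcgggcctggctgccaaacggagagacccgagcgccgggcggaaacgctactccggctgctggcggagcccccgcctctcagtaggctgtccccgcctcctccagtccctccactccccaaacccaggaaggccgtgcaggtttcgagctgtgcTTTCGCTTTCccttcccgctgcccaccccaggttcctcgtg
Psme2, chr14:55828509-55828808, minus strand: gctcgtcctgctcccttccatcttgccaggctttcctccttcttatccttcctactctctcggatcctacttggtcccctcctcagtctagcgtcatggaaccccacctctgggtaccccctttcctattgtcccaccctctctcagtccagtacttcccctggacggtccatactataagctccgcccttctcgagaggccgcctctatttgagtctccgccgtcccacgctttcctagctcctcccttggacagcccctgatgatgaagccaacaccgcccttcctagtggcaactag
Psme3, chr11:101206789-101207088, plus strand: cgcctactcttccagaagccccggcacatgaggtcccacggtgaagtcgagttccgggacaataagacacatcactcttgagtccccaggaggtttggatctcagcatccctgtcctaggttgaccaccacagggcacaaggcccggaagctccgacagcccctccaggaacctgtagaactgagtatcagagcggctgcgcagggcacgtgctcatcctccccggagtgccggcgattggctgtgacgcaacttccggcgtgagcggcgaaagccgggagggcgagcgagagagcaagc

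Psme1 held the ISRE core on the minus strand, read as TTTCGCTTTC on the plus strand from position 10, with the transcript start as position 1. The Psme2 window, a second overlapping Psme2 window and the Psme3 window held no ISRE core, GAS or ARE. Windows were found for 35 of the 42 genes (37 windows). The ISRE core was present in 4 of these genes, Psmb3, Psmd4, Psmd9 and Psme1. It was present in 3.99% of all 27025 genes with a window, and in 3.44% of all 32851 windows of the same length. Psmb3, Psmd4 and Psmd9 had log2 fold changes of 0.09, 0.08 and -0.07, none of which was called. GAS was found in 2 genes, Ifng and Psmd2 (9.55% of all genes with a window), the ARE in 8 genes (14.0%) and the CCAAT box in 12 genes (41.1%). A match describes the letters of a window and is no evidence of a bound factor.

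Reads of near copies and of overlapping genes could have been counted for one another. Psme2b, a near copy of Psme2 that the KEGG annotation does not list, had 289, 326 and 253 counts in oe-AQP1 and 101, 64 and 120 in oe-NC (log2 fold change 1.55, SE 0.16; adjusted p = 4.95e-05). With Psme2 and Psme2b summed into 1 gene, the log2 fold change was 1.09. In the GENCODE annotation, exons of Psme1 overlap those of Emc9 on the opposite strand, which had 85 to 120 counts per sample, and exons of Psme2 overlap those of Rnf31, a ubiquitin ligase gene on the opposite strand. Rnf31 was itself higher in oe-AQP1 (604 to 674 counts against 382 to 483; log2 fold change 0.52, SE 0.08). Exons of other members also overlap genes on the opposite strand. Psmb7 shares 2817 exon bases with Nek6, which had 2169 to 2710 counts per sample and was called lower (log2 fold change -0.18). Psmc5 shares 1269 exon bases with Smarcd2, and Psmd13 shares 458 with Sirt3. Smarcd2 and Sirt3 were not called. Strand use in the counting is not given in the sources used here, and its part in the values of these members was not tested.

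The immunoproteasome subunits Psmb8, Psmb9 and Psmb10, which replace the catalytic subunits Psmb5, Psmb6 and Psmb7 in cells exposed to interferon, were higher in oe-AQP1 with log2 fold changes of 1.58, 2.19 and 2.36. Irf1, Irf7, Isg15, Ifit1, Ifit3, B2m and Tap1, 7 interferon response genes, were chosen with earlier results of these data known. Of them, 7 were higher in oe-AQP1, beside 16.0% of all genes, with log2 fold changes of 0.81 to 4.85. Their summed level was 2082 to 2248 CPM in oe-NC and 6555 to 6636 CPM in oe-AQP1. The part of an interferon response in the Psme1 and Psme2 values was not tested. Ifng itself had 0 counts in all 6 samples.

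The 20S core was nearly level between the groups. Of 16 core genes, 14 passed the filter. Psma4, Psma5 and Psma7 were higher in oe-AQP1, no core gene was lower, and the median log2 fold change was 0.07 (range -0.13 to 0.28). The share called higher was 21.4%, beside 16.0% of all genes and 17.5% of the well-counted genes. At an unadjusted p under 0.05 there were 4 core genes, a count without a background share. In the sample oe-NC 1, all 14 tested core genes had their lowest CPM of the oe-NC group, as did 39.8% of all genes tested. Without that sample the median of the core was 0.00.

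All 3 called core genes encode alpha ring subunits, which form the gate of the barrel. They are 42.9% of the 7 tested alpha genes, beside 16.0% of all genes and 17.5% of the well-counted genes called higher. Psma5 measured 180, 176 and 171 CPM in oe-AQP1 and 139, 149 and 146 in oe-NC, and the 2 groups did not overlap (log2 fold change 0.28, SE 0.04; adjusted p = 0.00059). Psma4 measured 155, 152 and 148 CPM in oe-AQP1 and 122, 136 and 138 CPM in oe-NC (log2 fold change 0.20, SE 0.05; adjusted p = 0.014). Psma7 measured 202, 207 and 204 CPM in oe-AQP1 and 183, 185 and 187 CPM in oe-NC (log2 fold change 0.15, SE 0.03, adjusted p = 0.0093). For both genes the oe-AQP1 samples lay above all oe-NC samples. Psma5 was called in all 17 alternative fits, Psma7 in all but that without oe-AQP1 2 (log2 fold change 0.14), and Psma4 in all but those without oe-AQP1 1 (0.18) and without oe-AQP1 2 (0.20). The remaining tested alpha genes (Psma1, Psma2, Psma3 and Psma6) overlapped between the groups, and Psma1 had the lowest log2 fold change among them at -0.02. The alpha ring had a median of 0.10 over 7 genes.

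None of the 7 tested beta subunits was called, with a median log2 fold change of 0.02. The constitutive catalytic subunits were among them. Psmb5, which holds the chymotrypsin-like site, measured 77.3, 73.3 and 74.2 CPM in oe-AQP1 and 74.5, 82.9 and 88.9 CPM in oe-NC. The lowest oe-NC sample, oe-NC 1, lay inside the range of oe-AQP1, and the log2 fold change of -0.13 (95% confidence interval -0.27 to 0.01; adjusted p = 0.146) was not called. Without oe-NC 1 it was -0.20 and was called lower (adjusted p = 0.0004). Psmb6, with the caspase-like site, measured 139, 141 and 136 CPM in oe-AQP1 and 134, 138 and 140.2 CPM in oe-NC (log2 fold change 0.02, 95% confidence interval -0.07 to 0.10). Psmb7, with the trypsin-like site, measured 307, 309 and 307 CPM in oe-AQP1 and 280, 315 and 322 CPM in oe-NC (log2 fold change 0.01, 95% confidence interval -0.10 to 0.13). For both genes the samples of the groups overlapped, and the upper ends of the intervals lay far below the log2 fold changes of Psmb8, Psmb9 and Psmb10. Among the noncatalytic beta genes, Psmb2 and Psmb4 had log2 fold changes of 0.02 and 0.04. Psmb1 and Psmb3, named after their values had been seen, had log2 fold changes of 0.12 and 0.09. In both, all oe-AQP1 samples lay above all oe-NC samples.

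The tissue-restricted core subunits were close to absent. Psma8, an alpha subunit of spermatogenic cells, had 9 to 19 counts per sample in oe-NC and 8 to 12 in oe-AQP1. Psmb11, the catalytic subunit of the thymoproteasome, had 3, 0 and 0 counts in oe-AQP1 and 0, 0 and 1 in oe-NC. Neither passed the filter, and no difference was detectable at this depth.

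**Figure D3:**
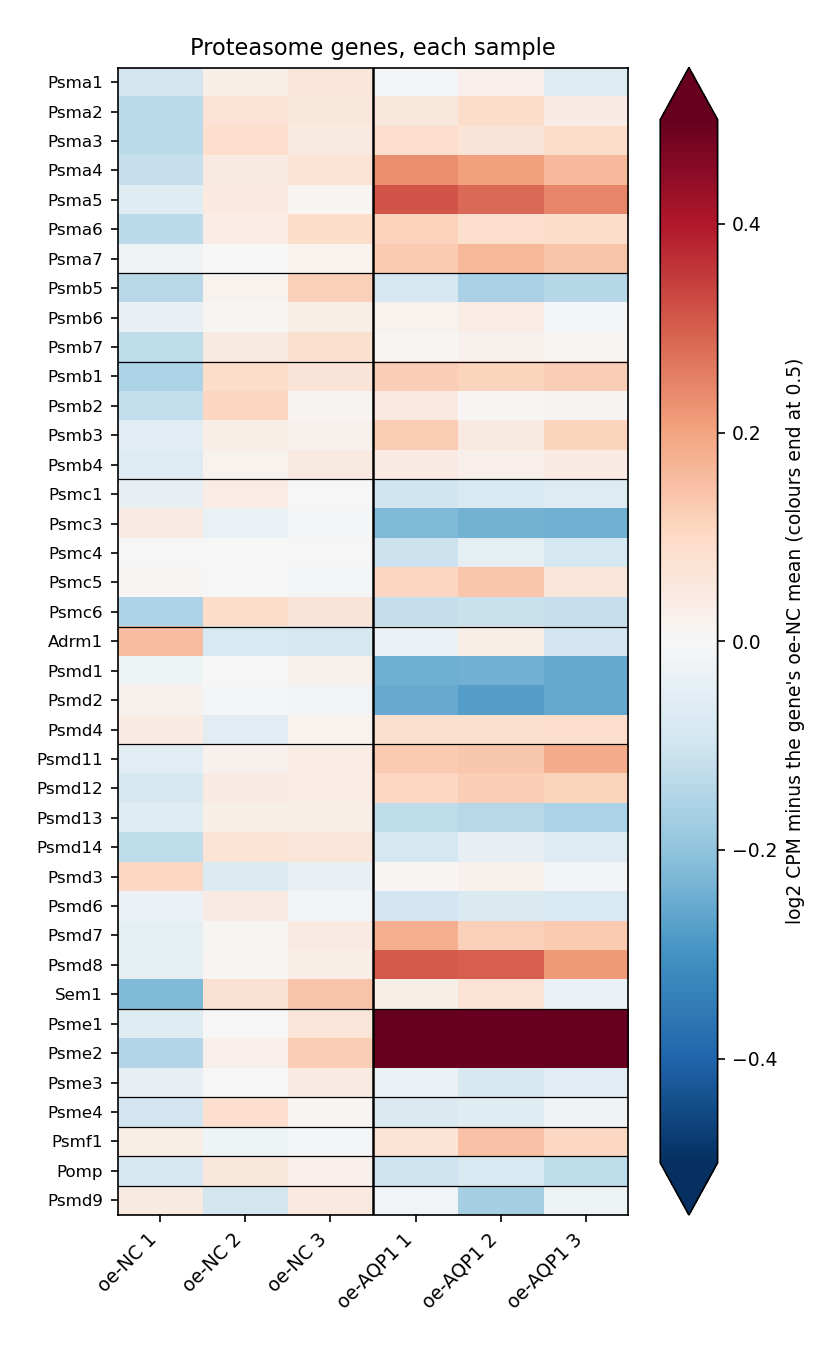
Log2 CPM of each of the 39 tested genes in each sample, minus the mean of that gene's oe-NC samples; rows are genes ordered by class, with lines between classes, and columns are samples. Psme1 and Psme2 exceed the end of the colour scale in all 3 oe-AQP1 samples, and oe-NC 1 is the lowest oe-NC sample in all 14 core genes.

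In the 19S cap, changes went both ways. All 18 cap genes passed the filter, 3 were higher in oe-AQP1 (Psmd7, Psmd8 and Psmd11), 4 were lower (Psmc3, Psmd1, Psmd2 and Psmd13) and 11 were not called. The shares of 16.7% higher and 22.2% lower stand beside 16.0% and 16.6% of all genes, and 17.5% and 24.8% of the well-counted genes, so they were near the background. The median log2 fold change was -0.05, with a range of -0.26 to 0.27, and -0.08 without oe-NC 1. The higher genes belong to the lid, and 3 of the 4 lower genes to the base.

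The base had 0 genes called higher and 3 lower (33.3%), beside 17.5% and 24.8% of the well-counted genes. Its 9 genes had 2 positive and 7 negative log2 fold changes and a median of -0.08. At an unadjusted p under 0.05 there were 5 base genes, again without a background share. With edgeR's quasi-likelihood test and DESeq2, no base gene was called higher either. Psmc5 was called higher in 4 of 17 alternative fits (library size only, at least 10 counts in every sample, sample quality weights and without oe-NC 1) and Psmd4 in 2 (the last 2 of these). Psmd2, a large scaffold and ubiquitin-receptor subunit, measured 530.0, 520.4 and 528 CPM in oe-AQP1 and 639, 628 and 624 CPM in oe-NC (log2 fold change -0.26, SE 0.03; adjusted p = 0.00011). Psmd1, the other large scaffold subunit, measured 263, 264 and 261 CPM in oe-AQP1 and 307, 312 and 316 CPM in oe-NC (log2 fold change -0.25, SE 0.03; adjusted p = 0.00028). Psmc3, an ATPase of the ring that pulls in the substrate, measured 292, 288 and 287 CPM in oe-AQP1 and 349, 331 and 338 CPM in oe-NC (log2 fold change -0.23, SE 0.03, adjusted p = 0.00062). For each of these 3 genes all oe-AQP1 samples lay below all oe-NC samples, and the lower call was made in all 17 alternative fits. The other tested ATPase genes had log2 fold changes from -0.12 (Psmc6) to 0.10 (Psmc5). Psmc2, the remaining ATPase of the ring, which the KEGG annotation of the table does not list, had a log2 fold change of -0.07 and was not called (adjusted p = 0.233).

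In the lid, 3 of 9 genes were higher (33.3%), 1 was lower (11.1%) and the median was 0.02. Among the well-counted genes 17.5% were higher and 24.8% lower, and each gene weighs much in a share of 9. Psmd8 measured 220.3, 219.7 and 207 CPM in oe-AQP1 and 173, 179.7 and 183 CPM in oe-NC, with no overlap (log2 fold change 0.27, SE 0.04; adjusted p = 0.00066). Psmd11, a scaffold subunit, measured 145, 145 and 150.2 CPM in oe-AQP1 and 127, 134 and 135 CPM in oe-NC (log2 fold change 0.15, SE 0.04; adjusted p = 0.019). Psmd7, the partner of the deubiquitinating subunit Psmd14, measured 219, 209.5 and 211 CPM in oe-AQP1 and 187, 193 and 198 CPM in oe-NC (log2 fold change 0.14, SE 0.04; adjusted p = 0.017). The groups did not overlap for these genes either. Psmd8 was called in all 17 alternative fits. The call of Psmd7 was lost without oe-AQP1 1 (0.12) or oe-AQP1 3 (0.15), and that of Psmd11 without oe-AQP1 1 (0.16), oe-AQP1 2 (0.16) or oe-AQP1 3 (0.13). Psmd13, named after its values had been seen as the 1 lower lid gene, measured 191, 189.8 and 187 CPM in oe-AQP1 and 200.2, 214 and 214 CPM in oe-NC. Its log2 fold change was -0.14 (SE 0.04; adjusted p = 0.019), and the call was lost when any 1 sample other than oe-NC 1 was left out (12 of 17 alternative fits kept it).

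Summed over their genes, the parts of the proteasome differed in their change between the groups. The 20S core genes summed to 2611, 2589 and 2576 CPM in oe-AQP1 and 2302, 2532 and 2547 CPM in oe-NC, where oe-NC 1 was the low sample. The difference of the means was 5.34% with and 2.06% without oe-NC 1. The 19S base genes summed to 2472, 2481 and 2462 CPM in oe-AQP1 and 2694, 2729.6 and 2729 CPM in oe-NC, without overlap. The difference of their means was -9.05% with oe-NC 1 and -9.44% without it. The lid genes summed to 1512 to 1589 CPM in oe-NC and 1591 to 1616 CPM in oe-AQP1 (2.93% higher, 1.35% without oe-NC 1). The ratios of these sums are expressed relative to their mean in oe-NC, and genes with more counts, through length or abundance, weigh more in them. The ratio of core to base was 1.17, 1.15 and 1.16 in oe-AQP1 and 0.944, 1.02 and 1.03 in oe-NC. The ratio of lid to base was 1.14, 1.13 and 1.13 in oe-AQP1 and 0.977, 1.01 and 1.01 in oe-NC. The ratio of the alpha to the beta ring was 1.06, 1.07 and 1.05 in oe-AQP1 and 1.00, 1.00 and 0.999 in oe-NC, the narrowest oe-NC spread of the 3 ratios. The groups did not overlap in any of these 3 ratios, which are sums over chosen genes and are given without a test. The ratios over the base share their denominator, and the base sum holds the called genes Psmd1, Psmd2 and Psmc3. The ratio of core to the whole cap was 1.11, 1.10 and 1.11 in oe-AQP1 and 0.952, 1.02 and 1.03 in oe-NC. For the summed cap genes, the difference of the means was -4.68% with oe-NC 1 and -5.48% without it. Against the core, the sum of Psme1 and Psme2 had a relative ratio of 0.979 to 1.03 in oe-NC and 1.99 to 2.09 in oe-AQP1. The sum of Psmb8, Psmb9 and Psmb10 against that of Psmb5, Psmb6 and Psmb7 had a relative ratio of 0.979 to 1.03 in oe-NC and 3.56 to 3.62 in oe-AQP1.

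**Figure D4:**
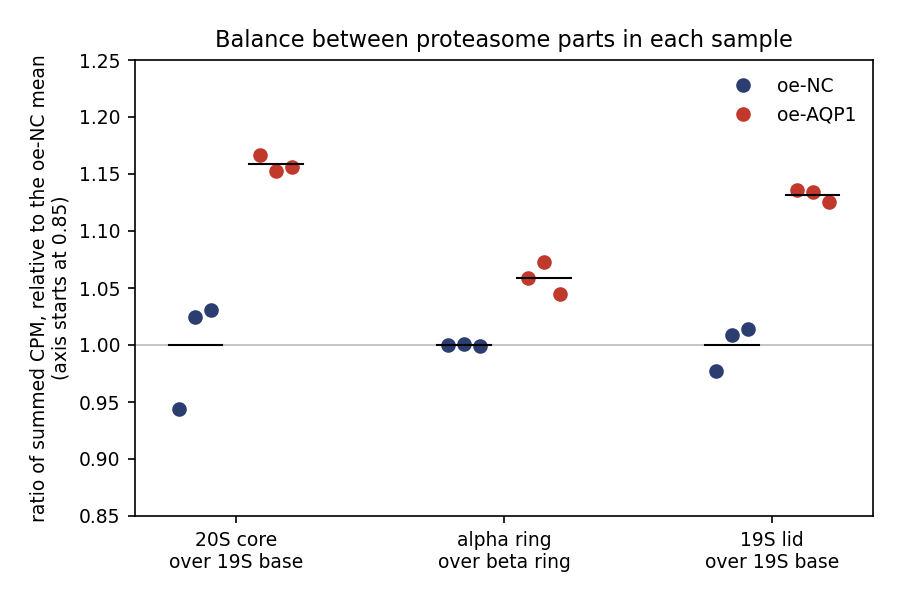
Ratio of summed CPM between parts of the proteasome in each sample (points), divided by the mean ratio of the 3 oe-NC samples, with group means as lines; the vertical axis starts at 0.85. Core over base, alpha over beta ring and lid over base are each higher in all oe-AQP1 samples than in all oe-NC samples, and oe-NC 1 is the lowest sample for core and lid over base.

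Of the remaining members, none was called. Psme4, which encodes the alternative activator PA200, measured 91.9, 92.7 and 95.5 CPM in oe-AQP1 and 90.5, 103 and 97.2 CPM in oe-NC (log2 fold change -0.05, 95% confidence interval -0.16 to 0.06). Psmf1, the proteasome inhibitor PI31, measured 95.1, 100.5 and 97.4 CPM in oe-AQP1 and 92.7, 89.4 and 90.1 CPM in oe-NC. Its samples did not overlap, but the log2 fold change of 0.11 missed the threshold (adjusted p = 0.076). It was called higher without oe-NC 1 (0.12, adjusted p = 0.0086) and with sample quality weights (0.12, adjusted p = 0.014), and in none of the other 15 alternative fits. Pomp, the maturation factor that helps the core assemble, measured 114, 116 and 112 CPM in oe-AQP1 and 116, 127 and 125 CPM in oe-NC. Its log2 fold change was -0.10 (adjusted p = 0.117), and -0.14 without oe-NC 1 (adjusted p = 0.0009). Psmd9, an assembly chaperone of the base, had a log2 fold change of -0.07 (adjusted p = 0.408).

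Other genes around the proteasome, a list of 29 genes with a row in the table, were all tested. Of these, 4 were higher (Psmg4, Akirin2, Ddi2 and Rad23b), 6 were lower (Vcp, Ubqln1, Uba1, Psmg1, Ube3c and Ngly1) and the median log2 fold change was 0.01, with no value beyond -0.35 or 0.28. These shares were 13.8% higher and 20.7% lower, beside 16.0% and 16.6% of all genes and 17.5% and 24.8% of the well-counted genes. Vcp, the segregase that extracts ubiquitinated proteins for the proteasome, measured 356, 352 and 354 CPM in oe-AQP1 and 450.3, 454 and 452 CPM in oe-NC. Its 2 groups were narrow and far apart relative to their spread (log2 fold change -0.35, SE 0.03; adjusted p = 1.42e-05). Ubqln1, a shuttle that carries ubiquitinated proteins to the cap, had a log2 fold change of -0.27, and Uba1, the main ubiquitin-activating enzyme, one of -0.26 (adjusted p = 0.00029 and 0.00019). The highest values were those of Psmg4, a chaperone of core assembly (0.28, adjusted p = 0.047), Akirin2, which brings proteasomes into the nucleus (0.19, adjusted p = 0.029), and Ddi2, the protease that activates Nfe2l1 (0.17, adjusted p = 0.020). Each of these 3 calls was lost when some single samples were left out, with log2 fold changes of 0.15 to 0.33 in those fits, and also without a filter. The call of Akirin2 was lost with DESeq2 as well (adjusted p = 0.074), and that of Psmg4 with upper-quartile factors (adjusted p = 0.0501). Nfe2l1, the transcription factor that induces proteasome genes as a group when proteasome activity is short, measured 404, 389 and 399.9 CPM in oe-AQP1 and 424, 370.3 and 367 CPM in oe-NC. These samples overlapped, and the gene was not called (log2 fold change 0.04, adjusted p = 0.586).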

How the data were processed

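Total RNA of RENCA cells was sequenced with Illumina TruSeq libraries, paired-end. The authors deposited expected counts per gene for each sample, unscaled between samples and not always whole (10.2% of values were fractional), with columns of group means that were not used here. The paper names GRCm39, whereas the submitters' processing notes list fastp, HISAT2, featureCounts, Subread, GRCm38 and mm10; the step that gave fractional counts is not given in the sources used here. Positions are from GENCODE M39.

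Expected counts were rounded and tested with limma-voom (limma 3.58.1, edgeR 4.0.16, R 4.3.3; TMM factors of 0.993 to 1.006; edgeR's filterByExpr by group; Benjamini-Hochberg adjustment over all 15522 genes, threshold 0.05), after the study's methods but without its threshold on fold change. CPM were counts scaled by the TMM-adjusted total of the genes tested, also for genes under the filter. The permutation test used log2(CPM + 0.5). Totals were 18385714 to 21920899 counts per sample, which put 1 CPM near 20 counts. Proteasome genes, subunit classes and gene lists were chosen with earlier results of these data known. Paaf1, of the list of other proteasome pathway genes, was not analysed here, and 1 interferon response gene is not reported here. Named genes were Aqp1 and all PA28, catalytic, tissue-restricted and non-subunit members. Also named were the 3 highest and 3 lowest fold changes among the other 20S and among the 19S subunits. The 3 highest and 3 lowest called genes of the other pathway list were named too. Rnf31, Emc9, Nek6, Smarcd2, Sirt3, Nfe2l1, genes at the ends of a range and genes named for counts of 5 or fewer were added after their values were seen.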

Additional observations from a re-analysis of the deposited data

How the results depend on the processing

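The comparison was repeated with DESeq2, edgeR's quasi-likelihood test, sample quality weights, 3 other scalings, 2 other filters, unrounded counts, a replicate block, leaving out each sample, stricter thresholds and, added after seeing the data, Psme2 summed with Psme2b. No scaling moved the median of all genes by more than 0.02. The calls of Psme1, Psme2, Psma5, Psmd8, Psmd1, Psmd2 and Psmc3 held in all 17 alternative fits. Same-numbered samples of the 2 groups did not deviate together (correlations of -0.000, 0.015 and -0.053), so no pairing was seen. Such correlations cannot exclude a shared culture or preparation, on which the labels are silent. With the replicate block 8 proteasome genes were higher and 4 lower (15.1% and 16.0% of all genes), the same genes as without it. Among other named genes Psmg4 lost its call (0.27, adjusted p = 0.052). With sample quality weights 12 were higher and 10 lower (20.1% and 21.4% of all genes in that fit), the core had 1 lower gene, the cap had 6 higher and 8 lower genes, the PA28 median was 1.01, and Psmb7 and Psmb2 were at -0.034 and -0.029. Scaled by library size only, the cap had 5 higher genes, and 17.2% of all genes were higher in that fit. Without a filter, Psmb6 was at -0.0029 and Psmb7 at -0.0068. At an adjusted p under 0.01, 5 proteasome genes were higher, of which 1 was a cap gene. The base genes Psmc3, Psmd1 and Psmd2 stayed lower at that threshold. The share of all genes there is not given. With a log2 fold change above 1 also required, 2 proteasome genes were higher and 0 lower, with 0 higher core genes and 0 higher and 0 lower cap genes.

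Leaving out each sample gave 5 to 12 higher and 3 to 13 lower proteasome genes. Among them were 1 to 3 higher and 0 to 1 lower core genes, and 1 to 6 higher and 3 to 9 lower cap genes. Of all genes, these fits called 11.7% to 19.4% higher and 11.0% to 20.7% lower, so the background moved too. The medians ranged from 0.0027 to 0.10 for the core, -0.085 to -0.031 for the cap and 0.99 to 1.13 for PA28. Psma1 ranged from -0.063 to 0.013, Psmb6 from -0.0027 to 0.029, Psmb7 from -0.051 to 0.051 and Psmb2 from -0.036 to 0.073. Most of the extremes came without oe-NC 1, and the cause was not tested. The fewest higher calls, 5, came without oe-AQP1 1 or without oe-AQP1 2, when 12.1% and 11.7% of all genes were called higher. Each of the 39 tested genes had more than 500 counts on average, and whether depth limited the calls of small changes was not tested. Psma8, Psmb11 and Ifng had too few counts for a comparison.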
